A study of Mus musculus with 2 samples.

Results

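The cells described here are interstitial cells of the mouse mitral valve that carried transcripts of Prss35 together with a large amount of versican mRNA. They were chosen by raw counts of unique molecular identifiers (UMIs), the tags that mark single captured mRNA molecules. A barcode was kept with at least 1000 UMIs, at least 500 genes and at most 20% mitochondrial UMIs, and it was called interstitial when Dcn, Col1a1, Col1a2 and Col3a1 together made up at least 1% of its UMIs. A member also had at least 3 UMIs of Prss35 and at least 10 of Vcan. This gave 2246 members among 15324 interstitial cells and 18630 kept cells, 1374 of them in the Fbn1 C1039G/+ library and 872 in the WT library. The comparator, called cells without Prss35, was the 3951 interstitial cells of the Fbn1 C1039G/+ library and the 3982 of the WT library that had no Prss35 UMI.

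The study profiled dissociated anterior and posterior mitral leaflets of C57BL/6J mice at 1 month of age by droplet 3′ RNA sequencing. The first group was heterozygous for Fbn1 C1039G, a cysteine substitution in fibrillin-1 used as a model of Marfan syndrome, and pooled the valves of 3 mice. The control group was Fbn1 +/+ (WT) and pooled the valves of 5 mice. Each genotype was thus 1 library, so no difference between genotypes had a replicate and no p-value was computed. Intervals are at 95% and cover counting error only. The Fbn1 C1039G/+ library held 103663375 UMIs in 9744 barcodes and the WT library 100969482 UMIs in 9509, and 17 barcode sequences occurred in both, none of them that of a member. Fbn1 itself was at 423 CPM (a gene's UMIs as parts in 1000000 of all UMIs of the cells named) in Fbn1 C1039G/+ members and at 352 CPM in WT members, a count that cannot show a substitution.

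Valve interstitial cells are the fibroblast-like cells that build and renew the leaflet matrix. Versican is a large chondroitin sulfate proteoglycan that binds hyaluronan, and the water held by these complexes makes the spongy middle layer of a mitral leaflet compressible. Hyaluronan is made by synthases such as Has2, and link proteins, pentraxin 3 and heavy chains of the inter-alpha-inhibitor family attach to it, while ADAMTS metalloproteases cleave versican and other matrix proteins. Prss35 encodes a secreted protein of the trypsin-like serine protease family.

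RefSeq start regions of genes that define or mark the cells are printed to show the sequence from which they are transcribed. Each window runs from 250 bases before to 50 bases after the transcript start of the RefSeq table (GRCm38.p6, the build called mm10), 5′ to 3′ on the gene's strand, and a window was found for 11 of 13 genes looked up. Prss35 and Vcan were taken because they define the members, and Itih5, Ptx3, Wnt16 and Rgs5 from among the genes higher in members, the last 3 because their windows held a match. Capitals mark matches, on either strand, to the SOX cores ACAAAG and ACAATG, the LEF/TCF core CTTTGA, the GATA core AGATAA and the TATA box TATAAA.
Prss35, chr9:86743383-86743682, plus strand: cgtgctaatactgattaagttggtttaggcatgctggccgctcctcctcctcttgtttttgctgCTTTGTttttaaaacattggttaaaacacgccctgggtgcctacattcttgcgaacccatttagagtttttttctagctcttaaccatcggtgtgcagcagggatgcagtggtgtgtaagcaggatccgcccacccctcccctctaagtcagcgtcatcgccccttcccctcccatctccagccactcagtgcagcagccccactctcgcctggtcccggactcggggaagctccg
Vcan, chr13:89742463-89742762, minus strand: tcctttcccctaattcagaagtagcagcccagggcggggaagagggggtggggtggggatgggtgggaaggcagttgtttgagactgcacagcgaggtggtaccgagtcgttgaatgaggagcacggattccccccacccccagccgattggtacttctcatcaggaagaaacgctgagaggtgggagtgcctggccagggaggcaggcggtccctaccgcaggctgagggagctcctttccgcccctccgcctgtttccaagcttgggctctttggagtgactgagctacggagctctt
Itih5, chr2:10153293-10153592, plus strand: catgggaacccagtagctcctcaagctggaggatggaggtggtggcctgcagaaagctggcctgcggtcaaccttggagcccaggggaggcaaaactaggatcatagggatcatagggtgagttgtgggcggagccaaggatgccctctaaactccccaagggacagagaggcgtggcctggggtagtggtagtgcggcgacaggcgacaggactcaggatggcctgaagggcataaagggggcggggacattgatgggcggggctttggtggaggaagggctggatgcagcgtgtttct
Ptx3, chr3:66219637-66219936, plus strand: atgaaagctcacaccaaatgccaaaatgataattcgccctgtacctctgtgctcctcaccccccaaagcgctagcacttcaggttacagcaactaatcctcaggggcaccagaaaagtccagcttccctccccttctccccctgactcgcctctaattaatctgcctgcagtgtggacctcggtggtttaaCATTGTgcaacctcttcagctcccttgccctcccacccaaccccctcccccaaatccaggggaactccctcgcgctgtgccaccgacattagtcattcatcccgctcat
Wnt16, chr6:22287977-22288276, plus strand: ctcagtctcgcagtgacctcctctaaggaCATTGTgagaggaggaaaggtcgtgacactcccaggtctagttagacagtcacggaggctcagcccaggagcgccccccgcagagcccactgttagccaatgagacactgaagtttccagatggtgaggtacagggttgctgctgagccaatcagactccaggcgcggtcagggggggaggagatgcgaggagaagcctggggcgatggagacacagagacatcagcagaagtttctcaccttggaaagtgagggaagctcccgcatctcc
Rgs5, chr1:169655251-169655550, plus strand: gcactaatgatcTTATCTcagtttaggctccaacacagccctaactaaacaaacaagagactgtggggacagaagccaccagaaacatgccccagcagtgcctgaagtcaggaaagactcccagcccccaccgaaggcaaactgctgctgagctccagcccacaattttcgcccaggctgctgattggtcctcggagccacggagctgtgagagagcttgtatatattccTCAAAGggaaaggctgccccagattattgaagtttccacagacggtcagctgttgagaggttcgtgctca
The Prss35 window held CTTTGT at base 65, and the Ptx3 and Wnt16 windows CATTGT at bases 192 and 30, all of which are a SOX core on the opposite strand. The Rgs5 window held TTATCT at base 13, a GATA core on the opposite strand, and TCAAAG at base 231, a LEF/TCF core. The Vcan and Itih5 windows held none of these letters. Of the 11 genes, 6 had a match in at least 1 window and 5 had none, Vcan, Itih5, Opcml, Tesc and Gata3. Over 32851 mouse windows of this length, ACAAAG occurred in 18.7%, ACAATG in 12.6%, CTTTGA in 16%, AGATAA in 11.2% and TATAAA in 13.6%, so each match is a common one and only a description.

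Prss35 lies at chr9:86743649-86758443 on the plus strand and Vcan at chr13:89655312-89742509 on the minus strand of mm10. The values that chose the members are a description. Fbn1 C1039G/+ members held a median of 7 Prss35 UMIs and at most 72, and WT members a median of 6 and at most 44. Their median of Vcan was 24 UMIs in the Fbn1 C1039G/+ library and 17 in the WT library. The limits fall within a continuous range of counts. Among Fbn1 C1039G/+ interstitial cells with at least 10 Vcan UMIs, 222 had 3 Prss35 UMIs and were members, while 275 had 2 and were not, and in the WT library these numbers were 190 and 295. At the Vcan limit, 52 Fbn1 C1039G/+ cells had exactly 10 UMIs and 72 had 9, against 70 and 63 WT cells.

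Prss35 transcripts were far more common in interstitial cells than in macrophages. At least 1 Prss35 UMI was seen in 49.1% of interstitial cells of the Fbn1 C1039G/+ library and in 47.3% of those of the WT library. In macrophages of the same libraries, defined by at least 5 UMIs of C1q genes, the shares were 4.88% in Fbn1 C1039G/+ and 2.92% in WT, at a median of 7398 and 8315 UMIs per cell. The macrophage shares show how often Prss35 UMIs were found in barcodes of another cell type. Free RNA and barcodes that hold more than 1 cell were not told apart there. Both UMI limits were passed by 6 of 901 Fbn1 C1039G/+ and 4 of 821 WT macrophages.

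The selected cells made up a larger share of the interstitial cells in the Fbn1 C1039G/+ library. There 17.7% of interstitial cells were members (95% Clopper-Pearson interval 16.8 to 18.6%), against 11.5% in the WT library (10.8 to 12.3%), a difference of 6.15 percentage points (Newcombe interval 5.03 to 7.26). Cells were split by sex from Xist and Y-linked transcripts, since cells with either were found in both libraries. Among cells with only Xist the shares were 16.1% in Fbn1 C1039G/+ and 9.87% in WT, and among cells with only Y-linked transcripts 18.5% in Fbn1 C1039G/+ and 12.6% in WT. The higher share was therefore present in cells of either sex. After every cell was thinned to 5000 UMIs, with limits of 2 Prss35 and 5 Vcan UMIs, the shares were 14.6% in Fbn1 C1039G/+ and 9.59% in WT. This left out 621 Fbn1 C1039G/+ and 174 WT interstitial cells that were shallower.

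**Figure D1:**
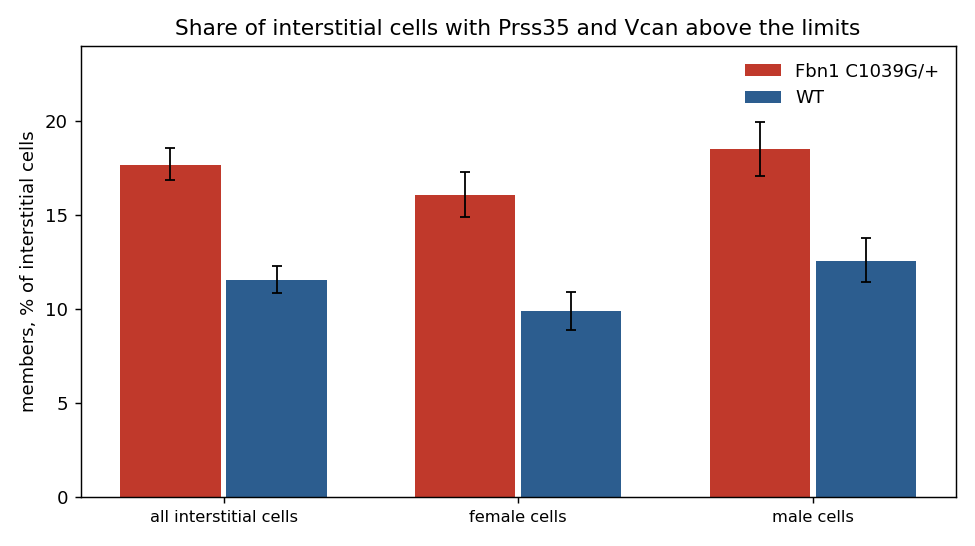
Members as a percentage of interstitial cells in each library (bars), for all cells and for cells with only Xist (female) or only Y-linked transcripts (male); the lines are 95% exact binomial intervals and cover counting error only. In each of the 3 pairs the Fbn1 C1039G/+ bar, on the left, is above the WT bar.

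Each limit of the rule taken alone was also passed more often in the Fbn1 C1039G/+ library. Prss35 reached 3 UMIs in 25% of Fbn1 C1039G/+ and 20.7% of WT interstitial cells. Vcan reached 10 UMIs in 37.6% of Fbn1 C1039G/+ and 30.5% of WT interstitial cells. Among cells with at least 3 Prss35 UMIs, 70.8% in Fbn1 C1039G/+ and 55.6% in WT passed the Vcan limit, whereas among cells without Prss35 the shares were 21.2% in Fbn1 C1039G/+ and 19% in WT. Members with 40 or more Vcan UMIs numbered 303 (22.1%) in the Fbn1 C1039G/+ library and 103 (11.8%) in the WT library.

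Because the limits are raw counts, members were deeper than the comparator, with medians of 12545 UMIs in members and 9528 in cells without Prss35 of the Fbn1 C1039G/+ library, and of 11259 and 9994 in the WT library. Barcodes over 20000 UMIs made up 18.1% of Fbn1 C1039G/+ members and 11.8% of WT members, against 3.44% and 3.82% of cells without Prss35. Transcripts of both sexes, a sign that a barcode holds more than 1 cell, were found in 11.8% of members and 4.35% of cells without Prss35 in the Fbn1 C1039G/+ library, and in 9.75% and 4.55% in the WT library. They were concentrated in the deepest barcodes, at 44.6% of Fbn1 C1039G/+ and 37.9% of WT members over 20000 UMIs. Between 8000 and 15000 UMIs the shares were 2.77% of members and 2.75% of cells without Prss35 in the Fbn1 C1039G/+ library, and 3.31% and 2.59% in the WT library. Within this band 18.1% of Fbn1 C1039G/+ and 12% of WT interstitial cells were members, and for some of the genes below the value in this band is given too.

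The marker genes proposed for these cells were Prss35, Vcan, Sox9, Itih5, Ptx3 and Adamts19, and the last 4 were no part of the rule. Itih5, an inter-alpha-inhibitor heavy chain that binds hyaluronan, was at 1572 CPM in members and 610 CPM in cells without Prss35 of the Fbn1 C1039G/+ library, and at 1125 and 510 CPM in the WT library. Ptx3, the pentraxin that cross-links hyaluronan, was at 312 and 169 CPM in these sets of the Fbn1 C1039G/+ library and at 318 and 166 CPM in the WT library. The ratios for Itih5 were 2.58 (2.54 to 2.62) in Fbn1 C1039G/+ and 2.21 (2.16 to 2.25) in WT, and those for Ptx3 were 1.85 and 1.92. Both genes were thus higher in members of each library. Adamts19, a secreted protease whose loss causes valve disease in mouse and human, showed a wider gap. It was at 121 CPM in members and 24.1 CPM in cells without Prss35 of the Fbn1 C1039G/+ library, and at 153 and 24.8 CPM in the WT library. Sox9, a transcription factor of cartilage and of the valve primordia, did not separate the cells as the other markers did. It was at 441 and 340 CPM in these sets of the Fbn1 C1039G/+ library and at 415 and 295 CPM in the WT library. Its mean log2 ratio of 0.43 lay under the 1.5-fold limit, and against cells without Prss35 that had at least 10 Vcan UMIs it was -0.05. The other markers were not all beyond that limit in the second comparison either. The median log2 ratio of the 4 genes was 1.08 in the first comparison and 0.48, under 1.5-fold, in the second.

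Across the transcriptome, a gene was called when its level, with 1 CPM added, differed at least 1.5-fold the same way in both libraries. A gene counted as measured with a mean of at least 10 CPM and at least 50 UMIs over the sets compared, in each library. Of 8515 genes measured, 146 (1.71%) were called higher and 197 (2.31%) lower in members than in cells without Prss35, and the median log2 ratio was 0.05. The 6 genes of the rule were left out of this comparison. The rule picked cells by Prss35 and Vcan in the same data, so the levels describe what came along with these transcripts and carry no test. Against cells without Prss35 that also had at least 10 Vcan UMIs, 97 of 8487 genes (1.14%) were called higher and 133 (1.57%) lower. Of the 146 genes called higher, 78 were also called in that comparison, as were 100 of the 183 lower genes measured there.

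The genes with the largest ratios had varied roles. Opcml, a membrane-anchored adhesion protein of the immunoglobulin superfamily, was at 54.6 CPM in members and 5.82 CPM in cells without Prss35 of the Fbn1 C1039G/+ library. There its ratio was 9.38 (8.14 to 10.9). WT members had 48.4 CPM and WT cells without Prss35 had 5.2 CPM, which gives 9.31 (7.95 to 10.9). Opcml was detected in 39.8% of Fbn1 C1039G/+ and 32.6% of WT members, so most members had no UMI of it. Thsd4, an ADAMTS-like protein that binds fibrillin microfibrils, had ratios of 8.07 (6.54 to 10.0) in the Fbn1 C1039G/+ library and 6.75 (5.44 to 8.40) in the WT library. Galnt14, an enzyme that starts mucin-type O-glycosylation, had ratios of 5.19 in Fbn1 C1039G/+ and 7.75 in WT. These 3 genes and Adamts19 had a mean log2 ratio between 2.43 and 3.01.

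Transcription regulators followed. Lef1, which carries Wnt signals to DNA, was at 28.3 CPM in members and 4.74 CPM in cells without Prss35 of the Fbn1 C1039G/+ library, and at 33.5 and 5.79 CPM in the WT library. Id4, which holds back basic helix-loop-helix factors, was at 456 and 102 CPM in the Fbn1 C1039G/+ library and at 412 and 103 CPM in the WT library. Gata3 was at 30.9 and 6.37 CPM in the Fbn1 C1039G/+ library and at 57.3 and 12.7 CPM in the WT library. The levels of these 3 genes in members were at least 4.01 times those in the comparator in either library. Tmem100, a membrane protein known from BMP signalling in endothelium, had ratios of 4.53 in Fbn1 C1039G/+ and 3.61 in WT. Rgs5, which shortens G protein signals and marks pericytes, had ratios of 3.79 in Fbn1 C1039G/+ and 4.60 in WT. Tesc, a calcium-binding protein, differed more between libraries, with ratios of 3.05 in Fbn1 C1039G/+ and 5.92 in WT. The other genes among the 15 with the largest mean log2 ratios were Wnt2, Mal, Wnt16, Stxbp6 and Rtn1, with mean log2 ratios of 1.72 to 1.98.

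The genes with the smallest ratios included C3, Mmp3 and Ogn. C3, the central complement component, was at 12.5 CPM in members and 72.4 CPM in cells without Prss35 of the Fbn1 C1039G/+ library, and at 14.1 and 192 CPM in the WT library. Mmp3, the protease stromelysin-1, was at 84.5 and 405 CPM in the Fbn1 C1039G/+ library and at 39.1 and 401 CPM in the WT library. Ogn, a small leucine-rich proteoglycan, was at 47.4 and 334 CPM in the Fbn1 C1039G/+ library and at 59.3 and 381 CPM in the WT library. In each of these the members were lower in both libraries, and for C3 and Mmp3 the gap was wider in WT. Igfbp3, which binds insulin-like growth factors, had a mean log2 ratio of -2.95, and Svep1, a large adhesion protein, one of -2.79. The other genes with the 15 smallest mean log2 ratios were Epyc, Ccn5, Kera, Chad, Angptl7, Cilp2, Ms4a4d, Clec3b, Chrdl1 and Vegfd, between -2.17 and -2.70. Between 8000 and 15000 UMIs the mean log2 ratio was -3.75 for C3, -3.88 for Mmp3, -3.95 for Ogn and -4.31 for Chad, the same direction with a larger gap. Chad, Cilp2 and Chrdl1, which lead a cluster of interstitial cells, were not called when the comparator also had to hold at least 10 Vcan UMIs. Against those cells the log2 ratio of Chad was 0.04 in the Fbn1 C1039G/+ library and 1.02 in the WT library, so WT members were higher there by more than 1.5-fold, opposite to the first comparison. Cilp2 had a mean log2 ratio of -0.28 and Chrdl1 one of -0.41. C3 kept a mean log2 ratio of -2.87 in that comparison and Mmp3 one of -2.48.

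**Figure D2:**
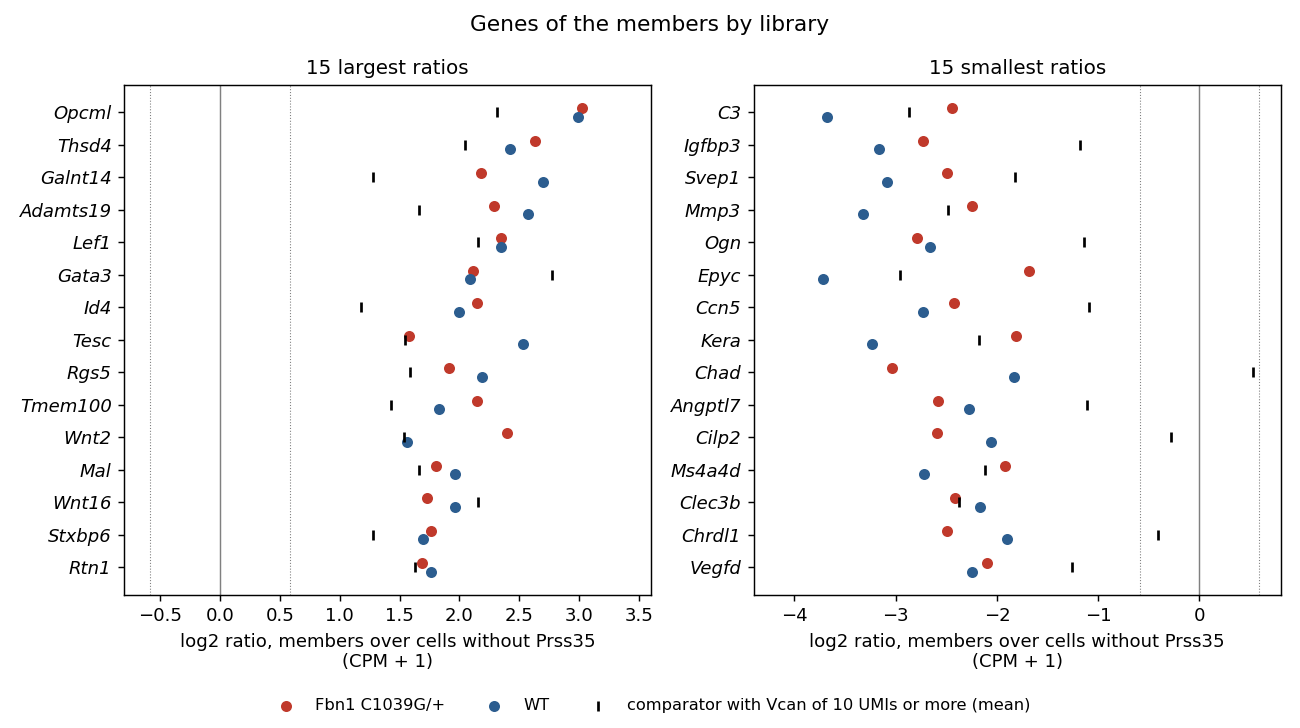
log2 ratio of levels in members over cells without Prss35 (CPM with 1 added, horizontal axis) for the genes with the 15 largest and 15 smallest mean ratios, one point per library; the black tick is the mean over both libraries against cells without Prss35 with at least 10 Vcan UMIs, and dotted lines mark 1.5-fold. Points of both libraries lie beyond the dotted lines for every gene shown, while the ticks of Chad, Cilp2 and Chrdl1, means over libraries, lie between the lines.

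Among genes of hyaluronan and its binding proteins, 3 of 10 measured were called higher and 0 lower, and 2 of the 3, Itih5 and Ptx3, are among the genes these cells were proposed by. The median log2 ratio of the list was 0.39, and 0.27 against cells without Prss35 with at least 10 Vcan UMIs. The other gene called was Has2, the main hyaluronan synthase of the embryonic heart, at 32.4 CPM in members and 20.8 CPM in cells without Prss35 of the Fbn1 C1039G/+ library and at 47.7 and 20.2 CPM in the WT library. Hapln1, the link protein that ties versican to hyaluronan, was at 37.3 and 21.8 CPM in Fbn1 C1039G/+ and at 34 and 22.5 CPM in WT, just short of 1.5-fold in the WT library on the scale with 1 CPM added. None of the 24 measured genes that build glycosaminoglycan chains was called in either direction, and their median log2 ratio was 0.06.

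Matrix proteases were split. Among ADAMTS proteases and ADAMTS-like proteins, 3 of 13 measured genes were called higher and 6 lower, with a median log2 ratio of -0.62. The higher ones were Adamts19, Adamts12 and Adamtsl3. The lower ones included Adamts5 and Adamts15, which cleave versican and aggrecan, and Adamts2, a procollagen N-proteinase. Adamts15 was at 23.9 CPM in members and 90.6 CPM in cells without Prss35 of the Fbn1 C1039G/+ library, and at 34.7 and 115 CPM in the WT library. Adamts5 was at 32.5 and 58.4 CPM in Fbn1 C1039G/+ and at 28.0 and 67.6 CPM in WT. Members thus had less mRNA of these 2 versican-cleaving enzymes than cells without Prss35. The sets differ in Prss35 as well as Vcan, so these values do not tie the lower levels to versican. Against cells without Prss35 that had at least 10 Vcan UMIs, the median log2 ratio of the ADAMTS list was -0.38. Among 21 other proteases and inhibitors 2 were called higher and 4 lower. Plat, tissue plasminogen activator, was at 307 and 159 CPM in Fbn1 C1039G/+ and at 271 and 157 CPM in WT. Prss23, a related serine protease, went the other way, at 13.4 and 22.3 CPM in Fbn1 C1039G/+ and at 6.68 and 25.7 CPM in WT.

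Fibrous matrix genes were mostly at or below the level of the comparator. Of 19 measured collagens 0 were called higher and 1, Col8a2, lower, with a median log2 ratio of -0.41. Among 21 elastic fibre and microfibril genes 1 was called higher and 5 lower. Thsd4, given above as higher in members, was not counted in this list or in the ADAMTS list. Eln, which encodes elastin, was at 93.3 CPM in members and 437 CPM in cells without Prss35 of the Fbn1 C1039G/+ library and at 97.7 and 360 CPM in the WT library. Lox, the enzyme that crosslinks elastin and collagen, was at 9.48 and 39.7 CPM in Fbn1 C1039G/+ and at 8.44 and 37.5 CPM in WT. Ltbp1, which stores latent TGF-beta on microfibrils, was the gene called higher, at 168 and 80.0 CPM in Fbn1 C1039G/+ and at 110 and 64.7 CPM in WT. Of 19 small leucine-rich and cell-surface proteoglycans 7 were called lower, among them Fmod, Aspn, Prelp and Epyc, and 2 higher, the membrane proteoglycans Sdc3 and Gpc1. Cartilage genes had 1 of 17 called higher, Col9a3, and 7 lower, and tendon genes had 1 of 8 higher, Egr2, and 3 lower. Comp, a cartilage and tendon matrix protein, was at 349 and 1707 CPM in Fbn1 C1039G/+ and at 393 and 1318 CPM in WT.

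Wnt genes held the largest number of higher calls of the lists examined, 8 of 20 measured against 1 lower, with a median log2 ratio of 0.48. The ligands Wnt2, Wnt5a, Wnt11 and Wnt16 were all among them. Wnt5a was at 267 CPM in members and 117 CPM in cells without Prss35 of the Fbn1 C1039G/+ library and at 297 and 131 CPM in the WT library. Wnt11 was at 56.4 and 13.5 CPM in Fbn1 C1039G/+ and at 44.8 and 16.9 CPM in WT. The receptor Fzd1, the Wnt amplifier Rspo3, the inhibitor Nkd2 and Lef1 completed the group. Sfrp2, a secreted Wnt modulator, was the lower gene, at 148 and 700 CPM in Fbn1 C1039G/+ and at 123 and 474 CPM in WT.

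BMP genes had 3 of 15 called higher and 3 lower. Bmp2, a ligand that drives cushion formation in the embryonic valve, was at 72.9 CPM in members and 34.7 CPM in cells without Prss35 of the Fbn1 C1039G/+ library and at 68.3 and 37.3 CPM in the WT library. Bmp5 and Id4 were the other higher genes. Id1 and Id2, which like Id4 are BMP targets, were lower, with mean log2 ratios of -0.79 and -1.04, as was the antagonist Chrdl1. Of 28 TGF-beta genes 2 were called higher and 0 lower, Ltbp1 and Postn. Postn, which encodes the matricellular protein periostin, was at 3475 and 1718 CPM in Fbn1 C1039G/+ and at 2610 and 1291 CPM in WT. Complement and adventitial fibroblast genes had 9 of 15 called lower, with a median log2 ratio of -1.06, and Clu and Opcml called higher. Among 33 mesenchymal transcription factors 2 were called higher, Zeb1 and Creb3l2, and 3 lower, Tcf21, Snai1 and Creb3l1. Of 10 measured retinoid and steroid handling genes 1 was called higher and 3 lower, with a median log2 ratio of 0.04. The higher one was Aldh1a3, an enzyme that makes retinoic acid. Among the lower ones was Cyp26a1, which breaks it down, at 41.0 and 109 CPM in Fbn1 C1039G/+ and at 32.0 and 91.5 CPM in WT.

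Markers of other cell types were set beside these results. The 9 macrophage markers summed to 674 CPM in members and 528 CPM in cells without Prss35 of the Fbn1 C1039G/+ library and to 568 and 875 CPM in the WT library, against 15449 and 15263 CPM in the cells of each library that were not interstitial. The 7 endothelial markers summed to 67.7 and 110 CPM in Fbn1 C1039G/+ and to 32.4 and 60.3 CPM in WT. Neither list was higher in members of both libraries. Of the mural cell markers 3 of 4 measured were called higher, the pericyte genes Rgs5, Kcnj8 and Abcc9. Myh11, which defines smooth muscle, was near 0, at 0.14 CPM in members and 3.11 CPM in cells without Prss35 of the Fbn1 C1039G/+ library and at 1.14 and 5.27 CPM in the WT library, and Pdgfrb was lower in members of both libraries without reaching 1.5-fold in WT. In cells that were not interstitial the mural list summed to 87.8 CPM in Fbn1 C1039G/+ and 95.6 CPM in WT, below the 563 and 678 CPM of the members. Any UMI of a marker of another cell type was found in 20.7% of members and 21.5% of cells without Prss35 of the Fbn1 C1039G/+ library and in 21.3% and 22.8% in the WT library.

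Levels of Vcan, Opcml and Ogn followed the number of Prss35 UMIs in the cell. In the Fbn1 C1039G/+ library, Vcan was at 619, 900, 1122, 1336, 1770 and 1907 CPM in interstitial cells with 0, 1, 2, 3 to 5, 6 to 10 and over 10 Prss35 UMIs. In the WT library it was at 547, 740, 947, 1026, 1363 and 1772 CPM. Every step up in Prss35 thus came with a higher Vcan level in both libraries. Opcml was at 5.82, 16, 24.9, 39.2, 44.9 and 69.9 CPM over the same steps in Fbn1 C1039G/+, and at 5.2, 14.2, 16.8, 23.9, 49.5 and 63.0 CPM in WT. Ogn ran the other way, at 334, 164, 128, 80.2, 52.1 and 43.8 CPM in Fbn1 C1039G/+ and at 381, 210, 153, 117, 74.2 and 48.2 CPM in WT. Cells with 1 or 2 Prss35 UMIs, which belong to neither set, lay between the comparator and the members for these genes. Other genes did not follow every step. Has2 was at 20.8, 30.9, 31.7, 30.6, 36.5 and 28.4 CPM in Fbn1 C1039G/+, and Tesc, Galnt14 and Mal were lower above 10 Prss35 UMIs than at 6 to 10 in that library. Prg4, which encodes the lubricant lubricin, had another shape: it was lowest in cells with over 10 Prss35 UMIs and in cells with none, at 1314 and 1431 CPM in Fbn1 C1039G/+ and at 1885 and 1848 CPM in WT, and was at 1901 CPM in Fbn1 C1039G/+ and 2976 CPM in WT in cells with 3 to 5. The median depth of a cell rises over the steps too, to 13365 UMIs in Fbn1 C1039G/+ and 11983 in WT above 10 Prss35 UMIs, and its part in these levels was not tested.

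**Figure D3:**
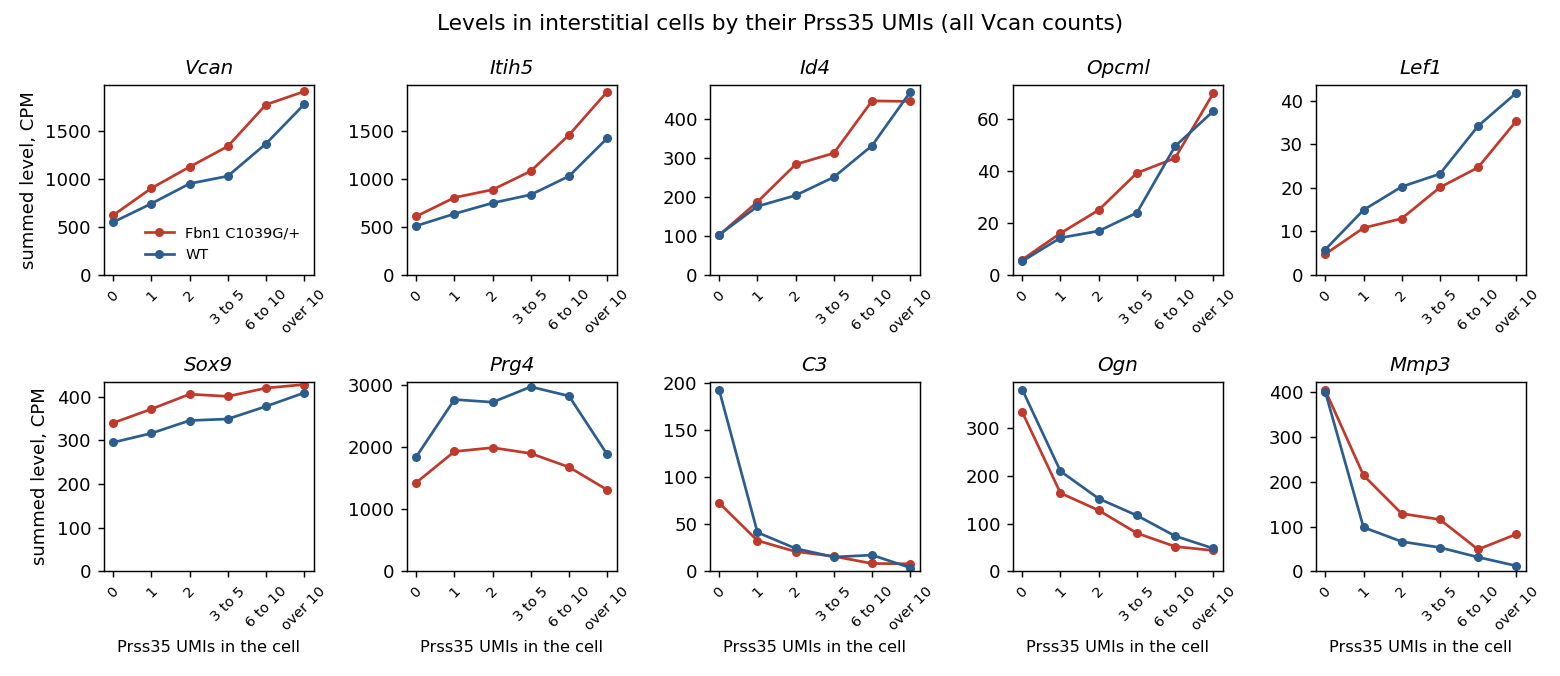
Summed level in CPM (vertical axis) of 10 genes in all interstitial cells of each library, grouped by the number of Prss35 UMIs in the cell (horizontal axis). Vcan, Itih5, Opcml and Lef1 climb in both libraries, C3, Ogn and Mmp3 decline over most steps, Sox9 climbs little and Prg4 peaks in between.

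Among the members themselves, a higher Vcan count came with more Id4 and less Comp mRNA. Id4 was at 324, 495 and 539 CPM in Fbn1 C1039G/+ members with 10 to 19, 20 to 39 and 40 or more Vcan UMIs, and at 276, 488 and 727 CPM in WT members. Comp was at 500, 305 and 251 CPM over these steps in Fbn1 C1039G/+ and at 535, 291 and 107 CPM in WT. Ptx3 moved less, at 287, 309 and 343 CPM in Fbn1 C1039G/+ and at 297, 335 and 355 CPM in WT. These steps are of raw Vcan counts and were not matched for depth. The part of depth and of doublets in these levels was not tested. The genes with the greatest cell-to-cell variance relative to their mean, in members thinned to 5000 UMIs, were Cd74, Mgp, Malat1, Apoe, Prg4, Gsn, Ifi27l2a and Npy. Cd74, the invariant chain of MHC class II and a transcript of antigen-presenting cells, headed the order with an average variance-to-mean ratio of 46.9, although its median count per cell was 0 in members of both libraries.

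Interstitial cells were divided into 15 clusters from genes other than Prss35 and Vcan, and the members were spread over several of them. The cluster led by Id4, Bdnf and Serpine2 held 46.7% of Fbn1 C1039G/+ and 23.1% of WT members, against 7.21% and 3.59% of cells without Prss35. The cluster led by Nrgn, Sez6l and Mal held 9.46% of Fbn1 C1039G/+ and 33.5% of WT members. A cluster led by Tesc, Npy and Prg4 held 10.6% of Fbn1 C1039G/+ and 17.9% of WT members. The members of the 2 libraries were thus made up of these states in different parts. Cells without Prss35 also differed between the libraries, at 5.11% in Fbn1 C1039G/+ and 12.3% in WT for the Nrgn cluster. For the Tesc cluster their shares were 6.43% and 6.65%. The clusters led by Ptprr, Cspg4 and Kcnk3 and by the interferon-induced genes Ifi44, Rsad2 and Isg15 held 7.79% and 7.64% of Fbn1 C1039G/+ members, against 0.69% and 1.72% of WT members. Of cells without Prss35 they held 2.48% and 9.01% in Fbn1 C1039G/+ and 0.88% and 2.94% in WT. In both libraries the interferon cluster thus held a smaller share of members than of cells without Prss35. The clusters led by Chad and by Cpz, Mmp3 and Fndc5 held at most 2.52% of the members of either library. A cluster led by the macrophage genes Lyz2, C1qa and Fcer1g held 3.28% of Fbn1 C1039G/+ and 3.67% of WT members, with a median of 16819 UMIs per cell.

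**Figure D4:**
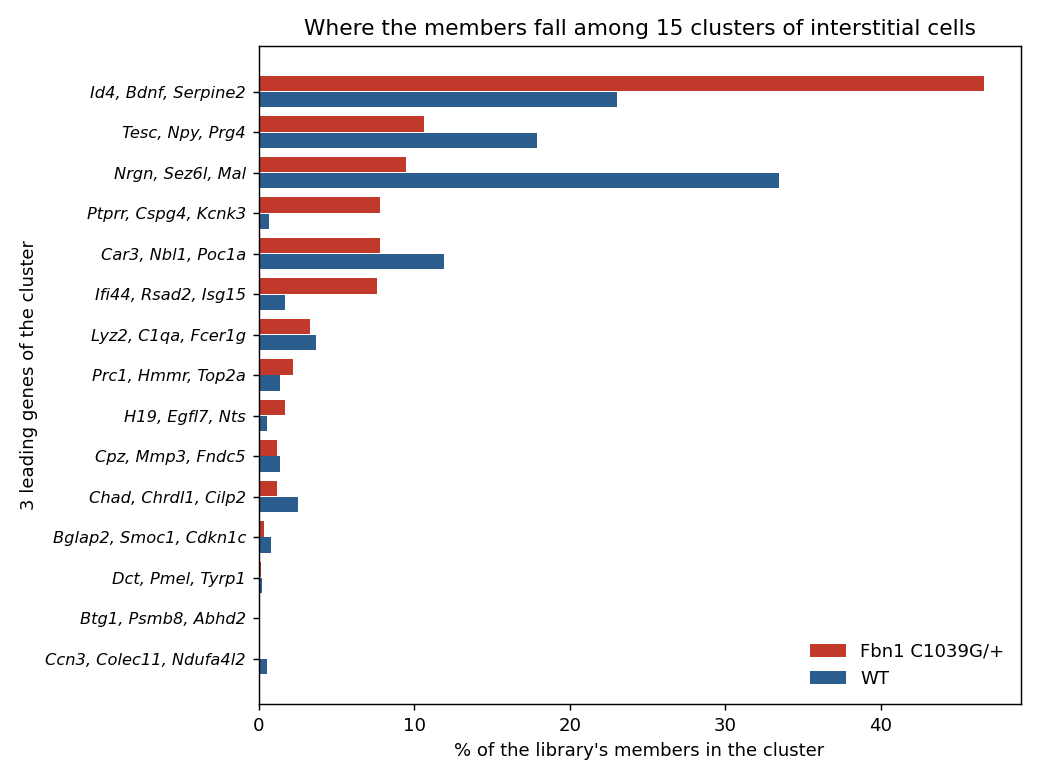
Percentage of each library's members (horizontal axis) in each of 15 clusters of interstitial cells, named by their 3 leading genes; clusters were made without Prss35 and Vcan. The bar of the Id4 cluster is the longest for Fbn1 C1039G/+ (46.7%) and the bar of the Nrgn cluster the longest for WT (33.5%).

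Members were also near each other in this space. Of the 15 nearest neighbours of a Fbn1 C1039G/+ member, 54.8% were members on average, and of a WT member 39.2%. Of the neighbours of cells without Prss35, 5.59% were members in the Fbn1 C1039G/+ library and 4.62% in the WT library. These shares compare with the members' 17.7% and 11.5% of all interstitial cells. Neighbours were taken from both libraries together and were not matched for depth. Members were deeper than the comparator, and the part of depth and of doublets in this nearness was not tested.

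Between genotypes, 192 of 8691 measured genes (2.21%) were at least 1.5-fold higher and 172 (1.98%) lower in Fbn1 C1039G/+ members than in WT members. In cells without Prss35 the same rule called 55 of 8728 genes higher (0.63%) and 140 lower (1.6%). Of the 192 genes higher in members, 168 were also measured in cells without Prss35, and 38 were called higher there. Of the 172 lower genes, 153 were measured in those cells, and 66 were called lower. Differences between single libraries include those between the mice pooled in them, and cannot be told apart from the genotype here.

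Several genes of matrix adhesion and secreted signalling were higher in Fbn1 C1039G/+ members. Fn1, which encodes fibronectin, was at 183 CPM in Fbn1 C1039G/+ and 45.9 CPM in WT members, a ratio of 3.98 (3.64 to 4.37), and at 266 and 114 CPM in cells without Prss35. Tnc, the matricellular protein tenascin-C, was at 63.3 CPM in Fbn1 C1039G/+ and 13.5 CPM in WT members, and at 55.9 and 32.8 CPM in cells without Prss35. Fst, the secreted activin inhibitor follistatin, was at 102 CPM in Fbn1 C1039G/+ and 9.40 CPM in WT members, a ratio of 10.9 (8.94 to 13.3), and at 30.8 and 22 CPM in cells without Prss35. The Fst ratio was thus far larger in members, where 30.2% of Fbn1 C1039G/+ and 8.72% of WT cells had a UMI of it. Part of these levels came from few barcodes. Among Fbn1 C1039G/+ members, 5 cells held 29.0% of the UMIs of Fst, 20.9% of those of Tnc and 17.6% of those of Fn1. Ereg, a ligand of the EGF receptor, was at 34.9 CPM in Fbn1 C1039G/+ and 7.03 CPM in WT members.

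These ratios varied with depth, sex and state. In female members Fst was at 130 CPM in Fbn1 C1039G/+ and 8.81 CPM in WT, and in male members at 30.4 and 9.04 CPM. Tnc was at 99.1 CPM in Fbn1 C1039G/+ and 7.15 CPM in WT female members, and at 38 and 16.3 CPM in male members. Both genes were thus higher in Fbn1 C1039G/+ members of either sex, with the wider gap in females. The Fbn1 C1039G/+ pool held only 3 mice, so a difference between sexes cannot be told apart from one between single mice. Between 8000 and 15000 UMIs, Fst was at 43.6 CPM in Fbn1 C1039G/+ and 9.16 CPM in WT members, Tnc at 26.3 and 7.93 CPM and Fn1 at 86.4 and 27.0 CPM. Within the Id4 cluster the log2 ratio of Fbn1 C1039G/+ over WT members was 2.92 for Fst, 2.87 for Tnc and 2.11 for Fn1. Within the Nrgn cluster it was -1.20 for Fst, 0.33 for Tnc and -0.19 for Fn1. Within the Tesc cluster it was 1.17 for Fst, 1.14 for Tnc and -0.01 for Fn1. In the Nrgn cluster Fst was at 1.89 CPM in Fbn1 C1039G/+ and 5.64 CPM in WT members, and Tnc was close to 0 in both. Members of the Id4 cluster thus showed the differences seen over all members, and members of the Nrgn cluster did not.

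Other large ratios rested on few barcodes. Nts, the precursor of neurotensin, was at 61.9 CPM in Fbn1 C1039G/+ and 0.18 CPM in WT members, but 5 cells held 90.7% of its UMIs in the Fbn1 C1039G/+ library. It was at 0.95 CPM in Fbn1 C1039G/+ and 0.31 CPM in WT members between 8000 and 15000 UMIs. For the chemokines Ccl8 and Ccl5, 5 cells held 76.1% and 67.3% of the UMIs of Fbn1 C1039G/+ members. Without the clusters led by Lyz2, Dct, H19 and Btg1 the log2 ratio was 0.42 for Nts, -0.58 for Ccl8 and 1.77 for Ccl5, against 5.74, 2.66 and 2.83 over all members. Ptprr and Ifi44, which lead clusters, were also among the 10 genes with the largest ratios, at log2 ratios of 2.29 and 2.21.

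The lowest ratios between genotypes belonged mainly to immediate early genes, which respond within minutes to stimulation, including that of tissue dissociation. Of 26 measured genes of this list, 16 were called lower and 2 higher in Fbn1 C1039G/+ members, with a median log2 ratio of -0.78. In cells without Prss35, 15 were called lower and 2 higher, with a median of -0.72. Fos was at 479 CPM in Fbn1 C1039G/+ and 1474 CPM in WT members, and at 503 and 1302 CPM in cells without Prss35. Gadd45b was at 21.3 CPM in Fbn1 C1039G/+ and 146 CPM in WT members, and at 32.3 and 139 CPM in cells without Prss35. The 2 higher genes were the heat shock genes Hspa1a and Hspa1b. How long each pool was processed is not given in the sources used here, and its part in these values was not tested.

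Coch, Myoc and Bglap2 were also lower in Fbn1 C1039G/+ members. Coch, a secreted protein known from the inner ear, was at 14.6 CPM in Fbn1 C1039G/+ and 65.6 CPM in WT members, Myoc at 58.6 and 204 CPM and Bglap2 at 27.0 and 113 CPM. UMIs of Coch were seen in 57 Fbn1 C1039G/+ and 96 WT members, and those of Bglap2 in 67 and 94. In these libraries 5 cells held 34.7% and 29.1% of the members' Coch UMIs, and 41.2% and 34.4% of their Bglap2 UMIs. For Myoc, seen in 308 and 369 members, 5 cells held 13.5% and 10.0%. Within the Id4 cluster the log2 ratio of Coch was 1.48, within the Nrgn cluster -1.14 and within the Tesc cluster -0.61, so its direction was not shared by the states. Coch itself was higher in members than in cells without Prss35, at 14.6 and 1.28 CPM in Fbn1 C1039G/+ and at 65.6 and 5.39 CPM in WT, but its mean in the Fbn1 C1039G/+ library was under the 10 CPM needed to be counted as measured. Myoc had log2 ratios of -0.69, -0.34 and -1.88 in these clusters, lower in each of them.

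By list, 5 of 20 measured collagens were called higher in Fbn1 C1039G/+ members and 0 lower, with a median log2 ratio of 0.42. In cells without Prss35 0 of 19 were called, and the median was 0.11. The 5 were Col5a3, Col8a1, Col14a1, Col15a1 and Col18a1, and Col8a1, a short-chain collagen of vessel and valve matrix, was at 197 CPM in Fbn1 C1039G/+ and 55.5 CPM in WT members. Within the Id4 cluster, which held a larger share of Fbn1 C1039G/+ members, the log2 ratio was 0.31 for Col14a1 and 0.24 for Col15a1, both under 1.5-fold, and 1.01 for Col5a3. Contractile and actin-linked genes had 4 of 19 higher and 0 lower, with Acta2, the smooth muscle actin of myofibroblasts, at 312 CPM in Fbn1 C1039G/+ and 190 CPM in WT members. Between 8000 and 15000 UMIs Acta2 was at 216 CPM in Fbn1 C1039G/+ and 167 CPM in WT members and was no longer past 1.5-fold, and its log2 ratio was -0.03 in the Nrgn cluster and -0.01 in the Tesc cluster. Cell cycle genes had 5 of 14 higher and 0 lower in members, against 0 of 14 in cells without Prss35. In the band of 8000 to 15000 UMIs, Ube2c was at 1.37 CPM in Fbn1 C1039G/+ and 1.53 CPM in WT members. There Cdk1 was at 2.43 and 2.90 CPM, while Ccnd1 was at 244 and 117 CPM. Over all depths, Ube2c was seen in 45 Fbn1 C1039G/+ and 17 WT members. Of 21 proteases and inhibitors 6 were higher and 1 lower. Timp1, a metalloproteinase inhibitor, was at 557 CPM in Fbn1 C1039G/+ and 211 CPM in WT members. Interferon-stimulated genes had 5 of 18 higher and 0 lower in members, and 5 of 20 higher and 1 lower in cells without Prss35. Wnt genes had 1 of 22 higher and 5 lower, and Rspo3 was at 95.3 CPM in Fbn1 C1039G/+ and 188 CPM in WT members. Vegfa, the endothelial growth factor, was at 38.4 CPM in Fbn1 C1039G/+ and 111 CPM in WT members, and its log2 ratio lay between -1.27 and -1.08 within the Id4, Nrgn and Tesc clusters. The genes that marked the members changed less: Itih5, Ptx3 and Adamts19 had log2 ratios of 0.48, -0.03 and -0.33 between the genotypes, none of them past 1.5-fold.

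**Figure D5:**
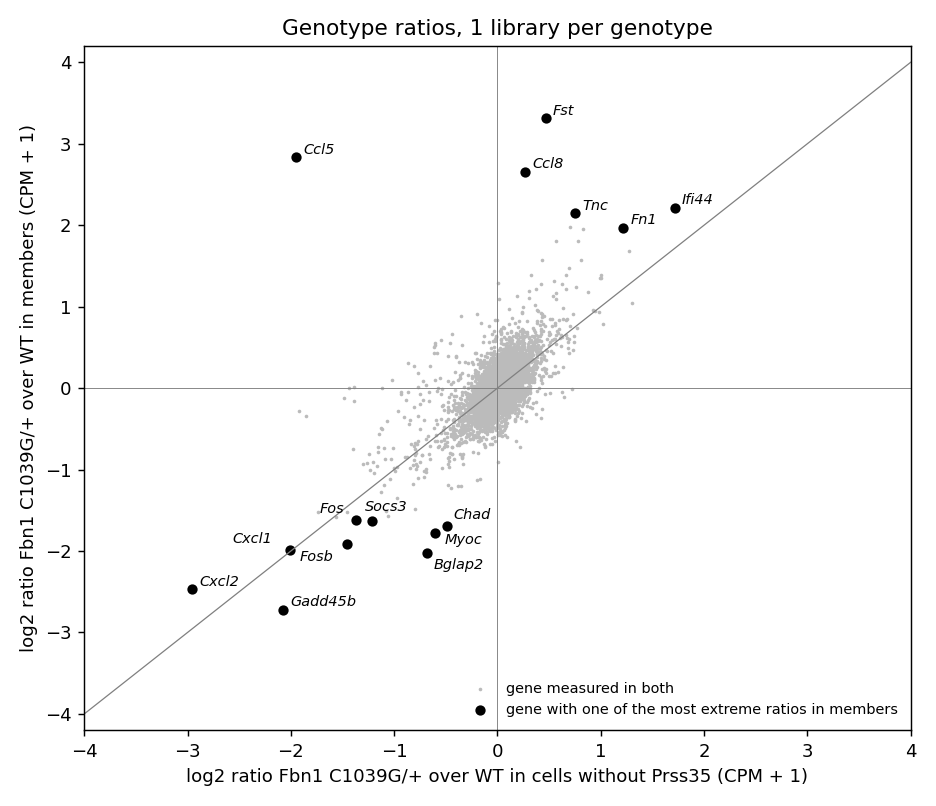
log2 ratio of Fbn1 C1039G/+ over WT (CPM with 1 added) in members (vertical axis) and in cells without Prss35 (horizontal axis) for 8481 genes measured in both; black points are labelled genes from among the 10 largest and 10 smallest ratios in members, where measured in both sets, and the diagonal marks equal ratios. Fst lies at 3.31 in members and 0.47 in cells without Prss35, Ccl5 has opposite signs, and Fos and Gadd45b lie in the lower left.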

How the data were processed

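The deposited files hold raw counts, whole numbers of UMIs per gene and cell barcode, for 2 libraries made with 10x Genomics 3′ chemistry. The authors made these counts with Cell Ranger against mm10, per the submitters' processing notes, which name version 3.1.0, while the file header names 5.0.1. Barcodes were already limited to called cells. UMIs were summed per library and cell set and scaled to CPM, with exact Poisson intervals for levels, exact conditional binomial intervals for ratios, Clopper-Pearson intervals for shares and Newcombe intervals for differences of shares. Ratios on the log2 scale had 1 CPM added, which understates changes of low genes. A gene was called past 1.5-fold, with no test, since each genotype was 1 library. Each library is a pool of mice, and depth per library is given above. Levels are 3′ UMI counts and are compared within a gene only. Doublets were kept, and their removal was an alternative. Free RNA was not removed.

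Clusters were made with scanpy 1.11.5 and leidenalg 0.10.2 on Python 3.11.15 with numpy 2.4.6, scipy 1.17.1 and pandas 2.3.3, from 15 nearest neighbours. Scripts were tested on simulated data. Gene positions are from GENCODE by Ensembl identifier, matched for 32158 of 32285, and promoter windows from RefSeq.

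The members and gene lists were chosen with earlier results of these data known. Genes were named by rule: the 15 largest and 15 smallest mean log2 ratios among genes called in both libraries, the 10 largest and 10 smallest genotype ratios, up to 4 genes of each list with the largest mean ratios, the 8 most variable genes and the markers. Mitochondrial, ribosomal, sex-linked marker and unnamed gene models were left out of the ranking. Other genes named for their role were chosen after their values were seen. Alternatives covered cell filters, the UMI limits, depth, doublets, the comparator, scaling, the added CPM, the level filter and sex. A gene of the ranked set is not reported here.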

Additional observations from a re-analysis of the deposited data

Results flagged for a closer look

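Ccl5, a chemokine, had a log2 ratio of Fbn1 C1039G/+ over WT of 2.83 in members and of -1.95 in cells without Prss35, the opposite sign. Between members and cells without Prss35 its log2 ratio was 1.52 in the Fbn1 C1039G/+ library and -3.26 in the WT library. UMIs of Ccl5 were seen in 56 Fbn1 C1039G/+ and 27 WT members. Cxcl10, an interferon-induced chemokine, had a log2 ratio of members over cells without Prss35 of 0.78 in the Fbn1 C1039G/+ library and -0.85 in the WT library. Fst had one of 1.70 in the Fbn1 C1039G/+ library and -1.14 in the WT library. These 3 genes were the ones called opposite ways in the 2 libraries, and with 1 library per genotype none of the differences was tested.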

How the results depend on the processing

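No paired analysis was possible because the libraries share only 1 replicate number. The difference in share kept its sign in every setting run, and 68 of 82 recalculated values stayed within 1.5 times the count reported or within the interval of the share. The difference in share was 7.31 points among cells with at least 5000 UMIs and 5.03 points after thinning to 5000 UMIs. Against cells without Prss35 with at least 10 Vcan UMIs, 97 genes were higher in members. With no filter on level, 293 genes were higher and 480 lower in members than in cells without Prss35, and 548 were higher and 547 lower in Fbn1 C1039G/+ than in WT members. With a mean of at least 50 CPM these counts were 54, 77, 62 and 63. Among female members, 270 genes were lower in Fbn1 C1039G/+ than in WT. Within the Nrgn cluster, an alternative chosen after seeing the data, 334 were higher and 308 lower in Fbn1 C1039G/+. The fewer cells or the number of genes tested differ by construction in these settings, and other causes were not tested. Between 8000 and 15000 UMIs, also chosen after seeing the data, the difference in share was 6.17 points, 191 genes were higher and 266 lower in members, and 154 were higher and 183 lower in Fbn1 C1039G/+ members. The balance of 192 higher against 172 lower between genotypes thus turned in this band, as it did with the interstitial rule at 2% (170 and 181) and in male members (211 and 240). Single genes changed sign too. Rgs5 was at 344 CPM in Fbn1 C1039G/+ and 391 CPM in WT members over all depths, and at 428 and 385 CPM in the band. Neither of these differences was past 1.5-fold. Ccl8 and Fst changed sign at levels under the mean of 10 CPM needed to be counted as measured. The genotype log2 ratio of Ccl8 was -0.54 in the band, at 0.53 CPM in Fbn1 C1039G/+ and 1.22 CPM in WT members. That of Fst was -1.20 in the Nrgn cluster, at the low levels given above, so neither gives a direction. The highest Scrublet scores marked 10.3% of Fbn1 C1039G/+ and 11.4% of WT members. Its automatic threshold called 0.0106% of Fbn1 C1039G/+ barcodes, so that caller had not worked there. Transcripts of both sexes mark pairs of cells from mice of unlike sex only.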

Other observations

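The remaining gene lists are given by the 1.5-fold size rule in both libraries, members against cells without Prss35, where 1.71% of all measured genes were called higher and 2.31% lower. Lists with 1 or no gene called are near that background. Of 14 Notch, angiopoietin and vascular growth factor genes 2 were higher, Angpt1 and Vegfa, and 2 lower, Notch3 and Vegfd. Vegfa was at 38.4 CPM in members and 19.9 CPM in cells without Prss35 of the Fbn1 C1039G/+ library, and at 111 and 43.4 CPM in the WT library. Of 19 semaphorins, ephrins and axon guidance genes, the netrin receptor Unc5b was higher and Sema3c lower. Of 23 integrins, fibronectin and tenascin genes 1 was higher, the collagen receptor chain Itga10, and 6 lower. Of 12 chemokines, cytokines and adhesion genes 0 were higher and 5 lower, Cxcl1, Cxcl12, Ccl2, Ccl7 and Icam1. Of 17 growth factor signalling genes the binding proteins Igfbp3 and Igfbp5 were lower. Of 26 immediate early genes Egr2 and Egr3 were higher and Cxcl1 lower. Of 17 interferon-stimulated genes 1 was lower, Ifi27l2a. Of 20 contractile genes 1 was lower, Lmod1. None of 14 cell cycle and 23 secretory pathway genes was called, at median log2 ratios of 0.41 and -0.03. Of 20 leading genes of other interstitial states 5 were higher and 9 lower.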
